A study of Mus musculus with 6 samples.

Results

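The 9 genes described here encode proteins that bind methylated CpG sites or that act in base excision repair downstream of the TET dioxygenases: the readers *Mbd1*, *Mbd2*, *Zbtb33* and *Uhrf2*, the DNA glycosylases *Mbd4*, *Tdg* and *Smug1*, and *Hmces* and *Apex1*, whose products act on abasic sites. They were listed by name for their function, with earlier results of these data known, and all 9 were found among the 22380 gene identifiers of the deposited files, 20775 of which could be paired with a symbol. RNA was measured by Smart-Seq2 sequencing of polyadenylated transcripts in 3 *Ctrl* and 3 *Tet iTKO* mouse embryonic stem cell (mESC) lines. The *Tet iTKO* lines carried loxP-flanked *Tet1* fl/fl, *Tet2* fl/fl and *Tet3* fl/fl alleles, a CreERT2 transgene (wt/ki) and 1 copy of the Rosa26 H2B-EGFP reporter that a loxP-STOP-loxP cassette keeps silent. The *Ctrl* lines carried the same CreERT2 transgene and reporter, but no floxed *Tet* allele, and received the same drug. All mice were on the B6 background. *Ctrl* embryos came from a cross with wildtype mice of the J substrain and *Tet iTKO* embryos from a cross with *Tet* floxed mice. The floxed alleles were made in stem cells of the NTac substrain, so that cross and genotype cannot be told apart. All lines grew in 2i medium on feeder fibroblasts, spent 2.5 days in 1 µM 4-hydroxytamoxifen (called tamoxifen in the labels) and 4 further days without it, and were sorted at day 6.5 for EGFP and CD326 and against Thy1.2, the surface marker of the feeders. CreERT2 was driven by the human ubiquitin C promoter, so that recombination was not limited to a cell type. Each line was derived from its own blastocyst.

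TET enzymes oxidize 5-methylcytosine in steps to 5-hydroxymethylcytosine, 5-formylcytosine and 5-carboxylcytosine. TDG cuts the last 2 of these bases out of DNA, the abasic site that is left is incised by APEX1, and later enzymes fill and seal the gap, which restores an unmodified cytosine. Proteins of the MBD family, Kaiso (the product of *Zbtb33*) and the UHRF proteins bind methylated or hydroxymethylated CpG sites and bring other complexes to them. Mouse embryonic stem cells in 2i medium are known for low DNA methylation and for high expression of TET1 and TET2.

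The stretches of DNA just upstream of 4 of these genes are shown, the 3 genes that passed the test below and *Tdg*, the central enzyme of the pathway. Their sets of motifs differ, although *Tdg* shares motifs with *Apex1* and with *Hmces*. The stretches were taken from RefSeq promoter windows of GRCm38.p6, which hold 250 bases before each start site, and cut to the part without annotated exons. Capitals mark matches of the E-box, the cyclic AMP response element, its shorter form and the Kaiso core described next, and all 4 sequences are on the strand of the gene.
Apex1, chr14:50924894-50924948, plus strand: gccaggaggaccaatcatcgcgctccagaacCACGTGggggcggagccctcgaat
Hmces, chr6:87913726-87913934, plus strand: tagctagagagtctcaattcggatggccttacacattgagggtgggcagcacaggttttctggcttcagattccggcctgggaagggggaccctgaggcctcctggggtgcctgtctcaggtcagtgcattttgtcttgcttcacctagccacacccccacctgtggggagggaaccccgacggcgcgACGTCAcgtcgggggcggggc
Uhrf2, chr19:30030263-30030512, plus strand: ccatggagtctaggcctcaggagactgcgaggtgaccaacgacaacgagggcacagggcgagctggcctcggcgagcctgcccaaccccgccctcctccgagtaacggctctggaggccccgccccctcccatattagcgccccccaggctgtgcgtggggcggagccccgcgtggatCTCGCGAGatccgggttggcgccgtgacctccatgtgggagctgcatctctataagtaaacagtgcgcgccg
Tdg, chr10:82629588-82629827, plus strand: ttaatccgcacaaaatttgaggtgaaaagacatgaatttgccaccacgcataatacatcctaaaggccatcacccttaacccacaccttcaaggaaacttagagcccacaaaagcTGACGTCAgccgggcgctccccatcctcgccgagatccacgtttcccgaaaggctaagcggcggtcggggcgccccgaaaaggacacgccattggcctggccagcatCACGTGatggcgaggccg

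Motifs were searched on both strands of the full windows of 250 bases, 32851 in all, and 7 of the 9 genes had one. Distances below are to the RefSeq start site at the end of each window, which is not always the gene start given further on. The windows of *Hmces* and *Tdg* end at 87913975 and 82629837, past those gene starts, and that of *Apex1* ends at 50924948, short of its own. The E-box CACGTG, a binding sequence of basic helix-loop-helix factors such as MYC, began 24 bases before the *Apex1* start and 28 bases before the *Tdg* start, and 6.02% of all windows held it. The cyclic AMP response element TGACGTCA began 135 bases before the *Tdg* start and was found in 1.55% of windows. Its shorter form TGACGT, which lies within the longer one in *Tdg*, also stood on the opposite strand 62 bases before the *Hmces* start and in the windows of *Smug1* and *Zbtb33*, against 6.47% of all windows. The palindrome CTCGCGAG, the core of a sequence described as bound by Kaiso, began 72 bases before the *Uhrf2* start, and 0.761% of windows held it. CG dinucleotides numbered 28 in *Apex1*, 27 in *Zbtb33*, 23 in *Uhrf2*, 22 in *Mbd4*, 19 in *Tdg*, 17 in *Hmces* and 14 in *Smug1*, and the median over all windows was 6. The CCAAT box, left in lower case above, was searched as well and was found in the windows of *Apex1*, *Tdg*, *Mbd4* and *Smug1* and in 33.8% of all windows. These matches describe letters only, and no binding or methylation was measured in these libraries.

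The *Ctrl* libraries held between 4210784 and 4219665 normalized counts and the *Tet iTKO* libraries between 3964824 and 3996522. Genes with a value above 0 numbered 13431 to 13539 in *Ctrl* and 14024 to 14363 in *Tet iTKO* libraries. An estimated 3.67 M to 5.10 M reads per library were counted on genes. The counting kept only reads in 1 orientation although the protocol keeps no strand, so reads of a gene in the other orientation are not among them. The deposited values are read counts per whole gene, divided by a size factor and rounded. The deletion removes only some exons of each *Tet* gene, so the values for *Tet1* (696, 682 and 716 in *Ctrl*, 787, 895 and 753 in *Tet iTKO* lines) do not check it. The 8 stem cell markers summed to between 14538 and 14981 normalized counts in *Ctrl* and between 13490 and 13762 in *Tet iTKO* libraries. Of these markers 2, *Esrrb* and *Epcam*, were higher and 3 lower in *Tet iTKO*, against 16.4% and 18.4% of all genes tested. *Pou5f1* had 5208, 5804 and 5457 normalized counts in *Ctrl* against 4373, 4318 and 4775 in *Tet iTKO*. *Nanog* had 1339, 1259 and 1181 against 1056, 991 and 1020. The groups did not overlap for these 2 genes, nor for *Zfp42* and *Utf1*, which had lower values in *Tet iTKO* as well. All 8 were well expressed in every library. The 10 feeder fibroblast markers summed to between 1673 and 1779 in *Ctrl* and between 2540 and 2586 in *Tet iTKO* libraries, most of it *Fn1*. Of the 6 with enough reads for a test, 4 were higher in *Tet iTKO*, against 16.4% of all genes tested. These were *Col1a1*, *Col1a2*, *Col3a1* and *Fn1*. *Dcn*, *Lum*, *Pdgfrb* and *Postn* had too few reads, and *Postn* was at 3 or less in every library. The feeder surface marker *Thy1* had 30, 46 and 41 normalized counts in *Ctrl* against 47, 35 and 23 in *Tet iTKO*. *Lox* had 10, 29 and 23 against 15, 26 and 9. The 5 markers found of the two-cell-like state, in which a few stem cells express genes of the early embryo, summed to between 8 and 23 in *Ctrl* and between 121 and 149 in *Tet iTKO* libraries, with *Zfp352* at 2 or less. All 3 marker sums and the library totals separate the groups and so move with every difference given below, and their part in it was not tested. In bulk RNA, fewer cells of a type and less RNA per cell cannot be told apart.

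**Figure D1:**
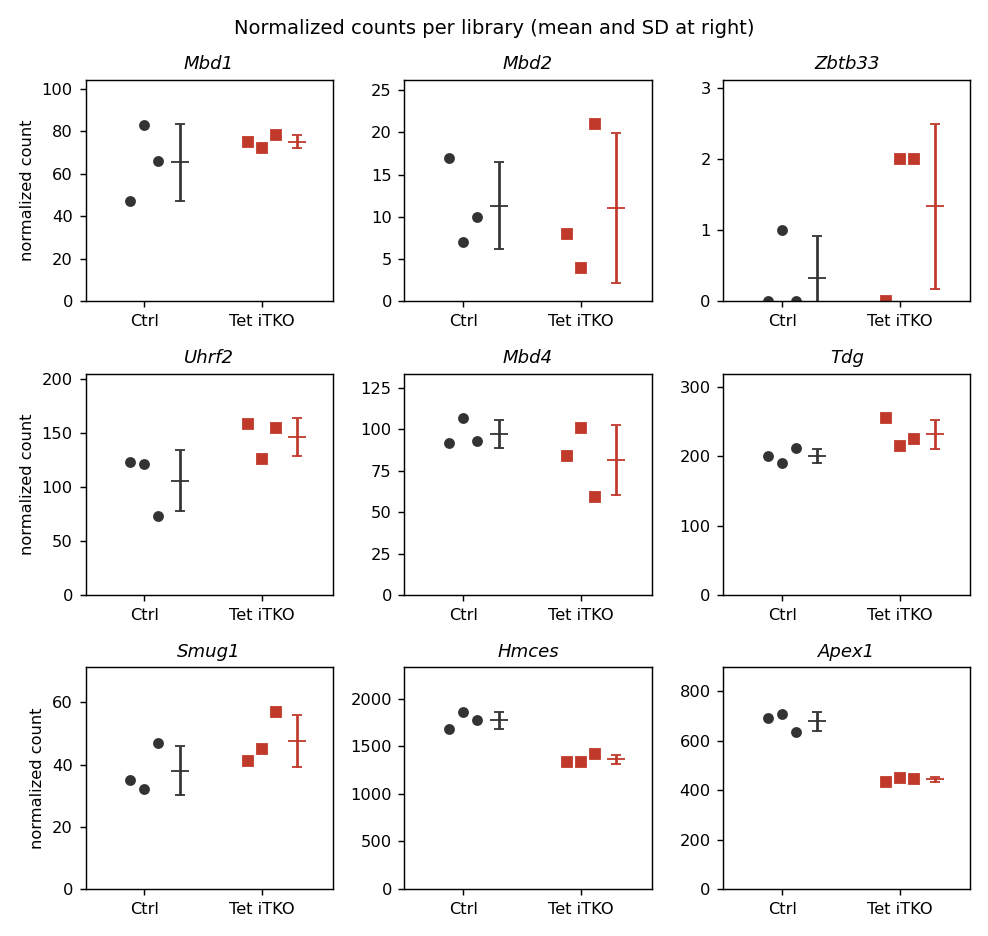
Normalized counts (vertical axes, from 0) of the 9 genes in the 3 *Ctrl* (black circles) and 3 *Tet iTKO* (red squares) lines, with the mean and SD of each group at the right of its points. The *Hmces* and *Apex1* values of the *Tet iTKO* lines all lie below those of the *Ctrl* lines, the *Uhrf2* and *Tdg* values all lie above them, and the other 5 genes overlap.

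Among the 9 genes, the transcripts of *Hmces* and *Apex1*, the enzymes of the abasic site, fell in *Tet iTKO* mESC to 76.9% and 65.2% of their *Ctrl* means, and that of *Uhrf2*, a reader of hydroxymethylated DNA, rose to 138% of its *Ctrl* mean. The glycosylases *Tdg*, *Mbd4* and *Smug1* and the readers *Mbd1* and *Mbd2* did not pass the test, and *Zbtb33* had too few reads for one. Thus 3 of the 8 genes tested were called at an adjusted p under 0.05 (limma on log2(normalized count + 1), Benjamini-Hochberg adjusted p over the 10524 genes whose mean reached 10), against 34.8% of all genes tested. In each direction, 2 were lower, against 18.4% of all genes, and 1 was higher, against 16.4%. The *Uhrf2* call held in only 3 of the 6 fits that left out 1 library, while those of *Hmces* and *Apex1* held in 6 of 6. The median log2 fold change of the 8 genes was -0.01, and that of all genes tested was 0.01. No member changed by a log2 fold change of 1 or more, a size that 6.25% of all genes reached with an adjusted p under 0.05. The groups did not overlap for 4 of the 8 genes, namely *Uhrf2*, *Tdg*, *Hmces* and *Apex1*, against 44.1% of all genes tested. Both counts, 3 and 4 of 8, lie close to what these background shares give for 8 genes.

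**Figure D2:**
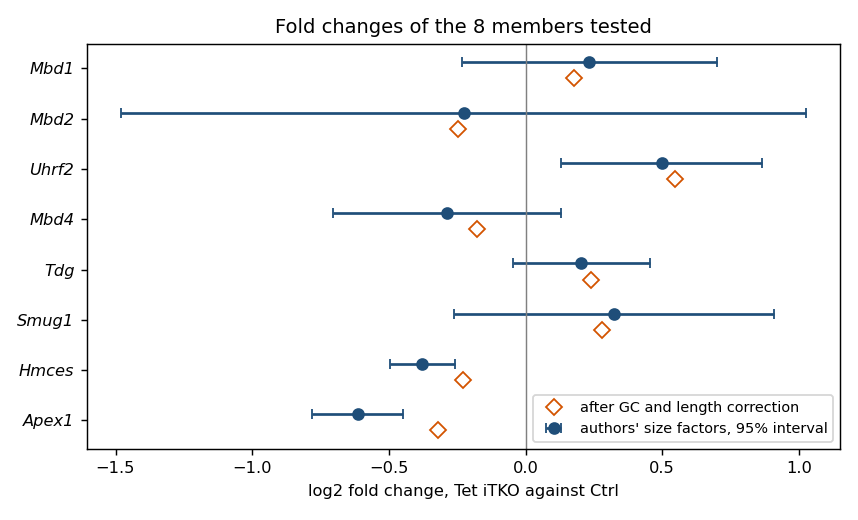
Log2 fold changes of the 8 genes tested (horizontal axis, *Tet iTKO* against *Ctrl*), as filled circles with 95% intervals, and as open diamonds after the GC and length correction. The intervals of *Uhrf2*, *Hmces* and *Apex1* lie off 0, and the diamonds of *Hmces* (-0.23) and *Apex1* (-0.32) lie nearer to 0 than the circles.

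Levels of different genes were compared per kilobase of exon. In *Ctrl* mESC *Hmces* was highest with 726 normalized counts per kb, followed by *Apex1* with 478, *Tdg* with 37.3, *Mbd4* with 18.4, *Uhrf2* with 12.3, *Mbd1* with 9.75, *Smug1* with 6.19, *Mbd2* with 3.53 and *Zbtb33* with 0.0651. In this order the libraries of *Uhrf2* and *Mbd1*, of *Mbd1* and *Smug1*, and of *Smug1* and *Mbd2* overlapped, so these neighbours did not differ beyond their spread. In *Tet iTKO* mESC the order was the same but for *Uhrf2*, with 17.0 normalized counts per kb, which stood before *Mbd4* with 15.4. The libraries of these 2 genes overlapped, as did those of *Mbd4* and *Mbd1*. Exon length was that covered by all annotated exons of a gene, 8590 bases for *Uhrf2* and 5280 for *Mbd4*. Their longest transcripts have 3536 and 3614 bases, and with these lengths *Uhrf2* would stand before *Mbd4* in *Ctrl* as well. The order of these 2 genes thus depends on the length chosen. *Hmces* and *Apex1* thus stood above the other 7 genes in both groups, among them the glycosylases *Tdg*, *Mbd4* and *Smug1*. Other DNA glycosylases do not enter this order. The highest of those listed, the uracil glycosylase *Ung*, lay nearer to *Apex1*, with 266 normalized counts per kb in *Ctrl* and 190 in *Tet iTKO* mESC. Exons of *Pip4p1* overlap 61.7% of the exon length of *Apex1*, so the *Apex1* level per kb may include reads of *Pip4p1*.

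**Figure D3:**
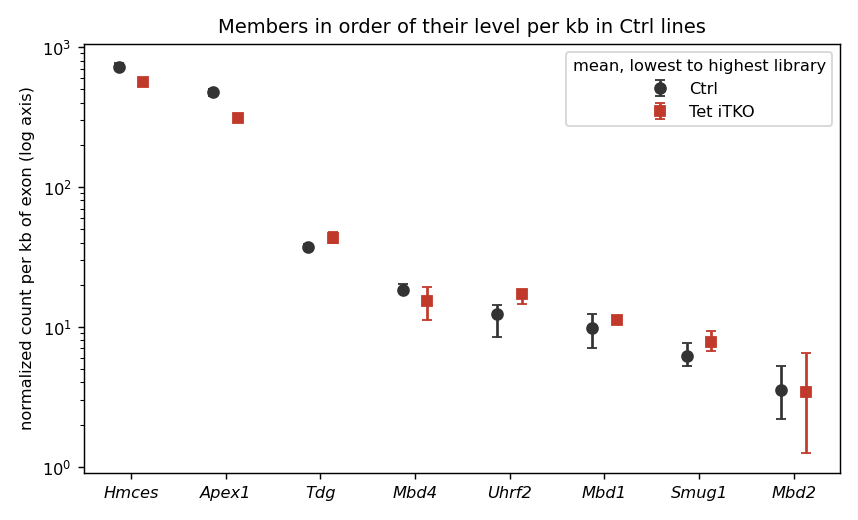
Normalized counts per kb of exon (log axis) of 8 of the genes, in the order of their *Ctrl* means, with bars from the lowest to the highest of 3 libraries. *Hmces* and *Apex1* have means of 312 or more in both groups and the other 6 of 43.0 or less, and *Zbtb33* is left out because 3 of its 6 values are 0.

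Among the readers, *Mbd1* (ENSMUSG00000024561.7, GRCm38 chromosome 18, plus strand) encodes a protein that binds methylated CpG sites and represses transcription. Its values were 47, 83 and 66 normalized counts in *Ctrl* against 75, 72 and 78 in *Tet iTKO* lines. The *Ctrl* values spread on both sides of the *Tet iTKO* values, and the means of 65.3 ± 18.0 (SD, n = 3) and 75.0 ± 3.00 (SD, n = 3) gave a log2 fold change of 0.23 (95% interval -0.23 to 0.70, adjusted p = 0.47, limma), which was 0.018 without *Ctrl* replicate 1 and 0.42 without *Ctrl* replicate 2. *Mbd2* (ENSMUSG00000024513.9, chromosome 18, plus strand), which recruits the NuRD repressor complex to methylated DNA, had 17, 7 and 10 normalized counts in *Ctrl* against 8, 4 and 21 in *Tet iTKO* lines. Both the lowest and the highest value were in *Tet iTKO* lines. The log2 fold change of -0.23 had a 95% interval from -1.48 to 1.03 (adjusted p = 0.81, limma), so that a difference of 2-fold either way was not detectable at this depth, and quantile normalization moved the value to -0.89 (adjusted p = 0.31, limma). *Zbtb33* (ENSMUSG00000048047.3, chromosome X from 38189793 to 38197046, plus strand) had 0, 1 and 0 normalized counts in *Ctrl* against 0, 2 and 2 in *Tet iTKO* lines. All 6 values lie under the 3 normalized counts taken as the least that this depth can show, and neither a fold change nor a test is given.

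*Uhrf2* (ENSMUSG00000024817.7, chromosome 19 from 30030513 to 30093722, plus strand) encodes a RING-type E3 ubiquitin ligase whose SRA domain binds 5-hydroxymethylcytosine. It had 123, 121 and 73 normalized counts in *Ctrl* against 158, 126 and 155 in the *Tet iTKO* lines. All *Tet iTKO* values were above all *Ctrl* values, but the lowest of them was only 3 normalized counts above the highest *Ctrl* value, and *Ctrl* replicate 3 lay far below the other 2. The means were 106 ± 28.3 (SD, n = 3) and 146 ± 17.7 (SD, n = 3), and the log2 fold change was 0.50 (SE, the standard error, 0.18, 95% interval 0.13 to 0.87, adjusted p = 0.031, limma). A lower log2 fold change was found for 84.1% of the genes tested. This call rested on single libraries: without *Ctrl* replicate 3 the log2 fold change was 0.25 (adjusted p = 0.28, limma), and the adjusted p was 0.12 without *Tet iTKO* replicate 1 and 0.11 without *Tet iTKO* replicate 3. It was also lost without the filter on low values (adjusted p = 0.12, limma) and without a trend in the variance (adjusted p = 0.17, limma), while the GC and length correction, in which a smooth trend of each library on these properties of the transcripts was subtracted, gave 0.55 (adjusted p = 0.021, limma).

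*Uhrf1*, the paralog that brings DNMT1 to newly replicated DNA, had 2465, 2325 and 2533 normalized counts in *Ctrl* against 2186, 2191 and 2231 in *Tet iTKO* lines. These groups did not overlap, and *Uhrf1* was lower by a log2 fold change of -0.15 (SE 0.05, adjusted p = 0.025, limma), a small difference that was -0.02 with quantile normalization (adjusted p = 0.82, limma) and -0.28 with the GC and length correction (adjusted p = 4e-05, limma). The *Uhrf1* call was lost without *Ctrl* replicate 1 or 3 or *Tet iTKO* replicate 1 or 2, where the log2 fold change was between -0.14 and -0.12 (adjusted p 0.054 to 0.12, limma). The log2 ratio of *Uhrf2* to *Uhrf1* within a library was -4.31, -4.25 and -5.10 in *Ctrl* and -3.78, -4.11 and -3.84 in *Tet iTKO* lines. Although the 3 *Tet iTKO* ratios were the highest, the difference of 0.64 had p = 0.1 in an exact two-sided permutation test, the smallest p that 3 lines against 3 can give, and p = 0.233 after adjustment over the 7 ratios computed.

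Of the glycosylases, *Tdg* (ENSMUSG00000034674.11, chromosome 10 from 82629828 to 82650799, plus strand) encodes the enzyme that removes 5-formylcytosine and 5-carboxylcytosine, the products that TET enzymes make. It had 200, 190 and 211 normalized counts in *Ctrl* against 255, 214 and 225 in *Tet iTKO* lines. The highest *Ctrl* and the lowest *Tet iTKO* line were 3 normalized counts apart, and although the groups did not overlap the difference did not pass the test. The means of 200.3 ± 10.5 (SD, n = 3) and 231 ± 21.2 (SD, n = 3) gave a log2 fold change of 0.20 with a 95% interval from -0.05 to 0.45 (adjusted p = 0.21, limma), and it was 0.13 without *Tet iTKO* replicate 1. The exons of *Tdg* overlap those of *Glt8d2* on the opposite strand over 6.83% of their length, and *Glt8d2* had 0, 0 and 1 normalized counts in *Ctrl* against 8, 1 and 1 in *Tet iTKO* lines.

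*Mbd4* (ENSMUSG00000030322.6, chromosome 6 from 115840697 to 115853371, minus strand) joins a methyl-CpG binding domain to a glycosylase that removes thymine or uracil opposite guanine. Its values were 92, 107 and 93 normalized counts in *Ctrl* against 84, 101 and 59 in *Tet iTKO* lines. *Tet iTKO* replicate 3 was the lowest and *Ctrl* replicate 2 the highest, and the other 4 values lay within 17 normalized counts of each other. The log2 fold change was -0.29 with a 95% interval from -0.70 to 0.13 (adjusted p = 0.30, limma), and it was -0.075 without *Tet iTKO* replicate 3 and -0.46 without *Tet iTKO* replicate 2. *Smug1* (ENSMUSG00000036061.8, chromosome 15 from 103153290 to 103167092, minus strand), whose product removes uracil and 5-hydroxymethyluracil, had 35, 32 and 47 normalized counts in *Ctrl* against 41, 45 and 57 in *Tet iTKO* lines. The groups overlapped, since *Ctrl* replicate 3 exceeded 2 of the *Tet iTKO* lines. The log2 fold change was 0.32 with a 95% interval from -0.26 to 0.91 (adjusted p = 0.41, limma), and it ranged from 0.19 without *Tet iTKO* replicate 3, or 0.21 without *Ctrl* replicate 2, to 0.48 without *Ctrl* replicate 3.

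*Hmces* (ENSMUSG00000030060.8, chromosome 6 from 87913935 to 87936629, plus strand) encodes a protein that binds covalently to abasic sites in single-stranded DNA and was first described among proteins bound to 5-hydroxymethylcytosine in stem cells. It had 1684, 1865 and 1773 normalized counts in *Ctrl* against 1340, 1335 and 1417 in *Tet iTKO* lines. The groups were well apart: the highest *Tet iTKO* line lay below the lowest *Ctrl* line by more than the spread within either group. The means were 1774 ± 90.5 (SD, n = 3) and 1364 ± 46.0 (SD, n = 3), a log2 fold change of -0.38 (SE 0.06, 95% interval -0.50 to -0.26, adjusted p = 3.2e-06, limma). It stayed between -0.42 and -0.34 in fits without 1 line each and was called in 6 of 6 of these fits. With the GC and length correction it was -0.23 (adjusted p = 0.0018, limma). Of the 971 genes with a mean within 2-fold of that of *Hmces*, 61.8% were called, and 17.5% of all genes tested had a larger fall.

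*Apex1* (ENSMUSG00000035960.6, chromosome 14 from 50924968 to 50927139, plus strand) encodes the main endonuclease that cuts DNA at abasic sites, which also regulates the redox state of transcription factors. Its values were 693, 709 and 636 normalized counts in *Ctrl* against 432, 451 and 446 in *Tet iTKO* lines. The lines of each group lay close together, and no *Tet iTKO* line came near a *Ctrl* line. The means were 679 ± 38.4 (SD, n = 3) and 443 ± 9.85 (SD, n = 3), a log2 fold change of -0.61 (SE 0.08, 95% interval -0.78 to -0.45, adjusted p = 2e-07, limma). Without each line in turn it was between -0.66 and -0.58 and was called in 6 of 6 fits, and with the GC and length correction it was -0.32 (adjusted p = 0.0023, limma). Of the 2537 genes with a mean within 2-fold of that of *Apex1*, 49.2% were called, and 6.73% of all genes tested had a larger fall.

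The *Apex1* gene shares its place with 2 others. Of its 1422 exonic bases, 877 (61.7%) overlap exons of *Pip4p1* on the opposite strand, and as the library protocol keeps no strand, reads of the 2 genes cannot be told apart there. *Pip4p1*, which encodes a phosphatase of phosphoinositides, had 542, 566 and 515 normalized counts in *Ctrl* against 553, 497 and 530 in *Tet iTKO* lines, with a log2 fold change of -0.04 (adjusted p = 0.75, limma). With the values of both genes summed, a choice made after seeing the data, the log2 fold change was -0.33 (adjusted p = 0.00011, limma). *Osgep*, a gene of the KEOPS complex for transfer RNA modification, starts 75 bases from *Apex1* and is read in the other direction, so that the stretch shown above lies between both starts. It was looked at after its values were seen, which were 859, 874 and 904 normalized counts in *Ctrl* against 741, 666 and 616 in *Tet iTKO* lines. These groups did not overlap either, and *Osgep* fell by 0.39 on the log2 scale (SE 0.08, adjusted p = 0.0001, limma). In the same way *Ift122*, which starts 99 bases from *Mbd4*, had 40, 76 and 59 normalized counts in *Ctrl* against 60, 62 and 47 in *Tet iTKO* lines, with a log2 fold change of -0.01 (adjusted p = 0.98, limma).

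Ratios of genes with like functions were formed within each library, where the size factors have no part. The log2 ratio of *Apex1* to *Apex2*, its less active relative, was 2.27, 2.05 and 2.21 in *Ctrl* against 1.48, 1.53 and 1.65 in *Tet iTKO* lines. No *Tet iTKO* ratio reached the *Ctrl* ratios, and the difference was -0.62 with p = 0.1 in an exact permutation test (0.233 adjusted), or by -0.26 with the GC and length correction. The log2 ratio of *Smug1* to *Ung*, both uracil glycosylases, was -5.34, -5.44 and -4.93 in *Ctrl* and -4.65, -4.50 and -4.14 in *Tet iTKO* lines. These did not overlap either, with a difference of 0.81 and p = 0.1 in an exact permutation test (0.233 adjusted). For *Tdg* to *Mbd4*, the 2 enzymes that remove thymine opposite guanine, the mean log2 ratio was 1.04 ± 0.19 (SD, n = 3) for *Ctrl* against 1.53 ± 0.42 (SD, n = 3) in the *Tet iTKO* group, with overlap between them (p = 0.3, exact permutation test). The ratios of *Tdg* to *Smug1*, *Mbd2* to *Mbd1* and *Tdg* to *Tet1* differed by -0.12, -0.46 and -0.01, with p of 0.7, 0.6 and 1 in exact permutation tests, and their groups overlapped as well.

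**Figure D4:**
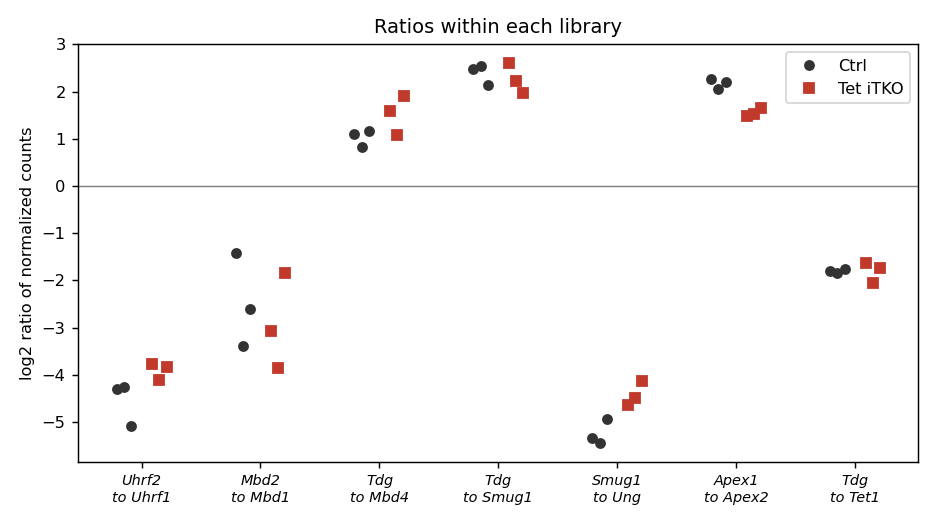
Log2 ratios of normalized counts (vertical axis) of 7 gene pairs in each of the 3 *Ctrl* (black circles) and 3 *Tet iTKO* (red squares) lines. The groups do not overlap for *Uhrf2* to *Uhrf1*, *Smug1* to *Ung* and *Apex1* to *Apex2*, and overlap for the other 4 pairs.

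The other genes of the pathway were listed by function, 39 in all, and 37 had a mean of at least 10. Of these, 8 were higher and 9 lower in the *Tet iTKO* lines, against 16.4% and 18.4% of all genes tested, and their median log2 fold change was 0.01, which is the median of all genes tested. With the GC and length correction 2 were higher and 9 lower, where 26.5% of all genes were called. The groups did not overlap for 19 of the 37, against 44.1% of all genes. These counts include *Neil3* and *Tet3*, whose mean reached 10 only through the group in which they are high, so that their calls are no support for a difference, and the count without overlap also includes *Mbd5* (*Ctrl* mean 8), which is in the same position but was not called.

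Among the 7 other genes tested from the list of methylcytosine readers, 1 was higher (16.4% of all genes) and 3 were lower (18.4% of all genes). Their median log2 fold change was 0.03, and with the GC and length correction 0 were higher and 2 lower. The 1 that was higher, *Mbd6*, is a relative of MBD proteins that does not itself bind methylated DNA. It had 198, 220 and 279 normalized counts in *Ctrl* against 312, 339 and 321 in *Tet iTKO* lines. Its log2 fold change of 0.49 (adjusted p = 0.0012, limma) turned to -0.03 (adjusted p = 0.88, limma) under the GC and length correction. *Zbtb38*, which like Kaiso is a zinc finger reader, was lower by -0.33 (adjusted p = 0.044, limma; -0.47 with the correction), and its 174, 166 and 172 normalized counts in *Tet iTKO* lay below the 226, 191 and 231 in *Ctrl*. *Zfp57*, the guardian of imprinted methylation, had 1831, 1807 and 1982 normalized counts in *Ctrl* against 1688, 1613 and 1762 in *Tet iTKO* lines, and a log2 fold change of -0.15 (adjusted p = 0.038, limma) that became 0.01 with the correction. Without single lines *Zbtb38* stayed called only in the fit without *Ctrl* replicate 2, with adjusted p of 0.068 to 0.15 in the other 5 and the smallest fall, -0.28, without *Ctrl* replicate 3. *Zfp57* lost its call without *Ctrl* replicate 3 or *Tet iTKO* replicate 1 or 2 (-0.15 to -0.11, adjusted p 0.074 to 0.20, limma).

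Of the 7 other glycosylases tested, 1 was higher and 2 were lower, with a median of -0.13, against the same shares of 16.4% and 18.4% of all genes, and the counts were unchanged in number with the correction. *Ung*, the main uracil glycosylase, fell from 1457, 1434 and 1465 to 1053, 1043 and 1021 normalized counts, a log2 fold change of -0.48 (SE 0.06, adjusted p = 6.1e-08, limma; -0.42 with the correction). *Mutyh*, which removes adenine opposite 8-oxoguanine, fell from 245, 236 and 248 to 187, 179 and 181, a log2 fold change of -0.41 (adjusted p = 0.0076, limma; -0.38 with the correction). In both genes the lines within a group lay close together and the groups were far apart. *Neil3*, a glycosylase of oxidized bases, had 2, 1 and 11 normalized counts in *Ctrl* against 19, 17 and 18 in *Tet iTKO* lines. Its mean in *Ctrl*, 4.67, lies under the filter of 10, so it entered the test through the *Tet iTKO* lines alone, and its log2 fold change of 2.19 is given as a description. Its call was also lost with quantile normalization (adjusted p = 0.054, limma) and without the variance trend (adjusted p = 0.062, limma).

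Of 14 genes of the later steps of base excision repair, 1 was higher and 2 were lower, with a median of 0.01, against 16.4% and 18.4% of all genes, and 0 were higher and 2 lower with the correction. *Pcna*, the sliding clamp of DNA synthesis, fell from 1236, 1253 and 1140 to 837, 778 and 698 normalized counts, a log2 fold change of -0.65 (SE 0.07, adjusted p = 3.3e-09, limma; -0.33 with the correction). *Aplf*, a factor bound to poly(ADP-ribose) at DNA breaks, had 59, 62 and 66 in *Ctrl* against 40, 31 and 44 in *Tet iTKO* lines, giving a log2 fold change of -0.70 (adjusted p = 0.037, limma; adjusted p = 0.077 with the correction). *Lig3*, a DNA ligase of the final step, had 269, 308 and 313 in *Ctrl* against 327, 386 and 395 in *Tet iTKO* lines, giving a log2 fold change of 0.31 (adjusted p = 0.018, limma; adjusted p = 0.29 with the correction). *Aplf* was called only without *Tet iTKO* replicate 3 among the fits that leave out 1 line, and was between -0.74 and -0.56 in the other 5 (adjusted p 0.055 to 0.16, limma). *Lig3* lost its call without *Ctrl* replicate 1 or *Tet iTKO* replicate 2 or 3 (0.24 to 0.28, adjusted p 0.084 to 0.10, limma). The other 11 genes were not called, but *Xrcc1*, a scaffold of the later enzymes that is named here after its values were seen, was lower with the correction (-0.22, adjusted p = 0.035, limma).

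Of the 9 writers and erasers of methylation, 5 were higher and 2 lower, with a median of 0.21, against 16.4% and 18.4% of all genes. With the GC and length correction, where 26.5% of all genes were called, 1 was higher and 3 were lower, with a median of -0.08. *Dnmt3l*, the cofactor of the de novo methyltransferases, fell from 901, 871 and 776 to 568, 599 and 641 normalized counts, a log2 fold change of -0.49 (adjusted p = 3.8e-06, limma; -0.39 with the correction). *Dppa3*, which keeps UHRF1 off chromatin, rose from 251, 302 and 294 to 369, 347 and 331, a log2 fold change of 0.31 (adjusted p = 0.021, limma; 0.82 with the correction). *Dnmt3a*, a de novo methyltransferase, was higher by 0.25 (adjusted p = 0.0012, limma) with the size factors alone and lower by -0.17 (adjusted p = 0.03, limma) after the correction, so its direction depended on the scaling. *Tet1* was higher by 0.21 (adjusted p = 0.026, limma) over the whole gene, or -0.02 (adjusted p = 0.89, limma) with the correction. *Tet2* had 249, 170 and 230 normalized counts in *Ctrl* against 233, 268 and 211 in *Tet iTKO* lines, giving a log2 fold change of 0.14 (adjusted p = 0.43, limma; -0.06 with the correction). *Tet3* had 28, 13 and 13 in *Ctrl* against 10, 3 and 3 in *Tet iTKO* lines. Its *Tet iTKO* mean of 5.33 lies under the filter, 2 of these values are at the floor, and its log2 fold change of -1.67 is given as a description. Calls were lost for *Dppa3* without *Ctrl* replicate 1 or *Tet iTKO* replicate 1 or 2 (0.23 to 0.31, adjusted p 0.054 to 0.12, limma) and for *Tet1* without *Ctrl* replicate 2 or *Tet iTKO* replicate 2 (0.20 and 0.14, adjusted p 0.084 and 0.22, limma).

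**Figure D5:**
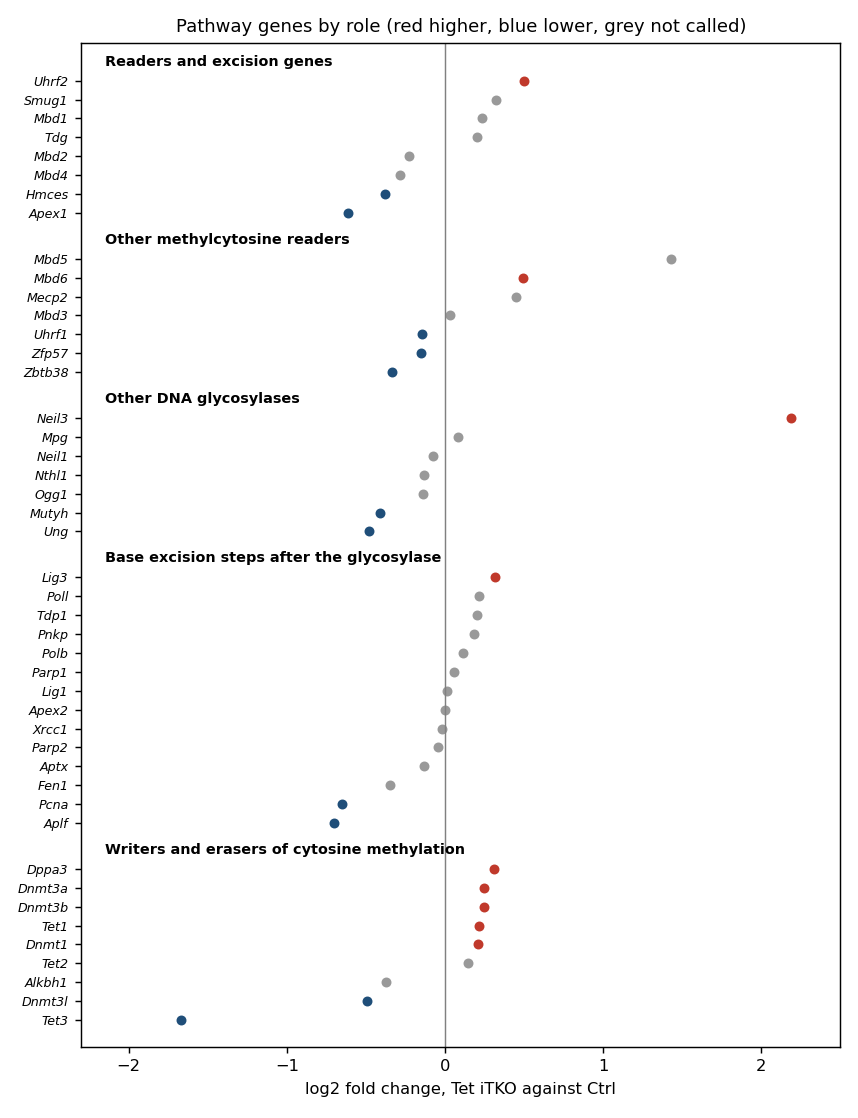
Log2 fold changes (horizontal axis, *Tet iTKO* against *Ctrl*) of 8 readers and excision genes and 37 other genes of the pathway, in groups by role, in red where higher, blue where lower and grey where not called at an adjusted p under 0.05. Most points lie within 0.5 of 0, and *Neil3* and *Tet3*, whose points lie outside -1.5 to 2, passed the filter only through the group in which they are high.

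For each of the 3 genes called, the genes whose log2 values over the 6 libraries, centred on their mean, were most like it were looked up among genes with a mean of at least 50. The measure was the root mean square difference, and the libraries of both groups enter it, so that a like difference between groups counts toward it. For *Hmces* they were *Gadd45gip1* (0.0254 in log2 units, over 7131 genes compared) and *Bcap31* (0.0276), with log2 fold changes of -0.39 and -0.37. For *Apex1* they were *Rps4l* (0.0293, over 6004 genes), whose reads may be shared with near-identical ribosomal protein genes, and *Cd9* (0.0314), with log2 fold changes of -0.62 and -0.59. For *Uhrf2* they were *Cplane1* (0.0495, over 3817 genes) and *Gon4l* (0.0516), both low in *Ctrl* replicate 3 as *Uhrf2* was. Their log2 fold changes were 0.49 and 0.56, and neither gene was called (adjusted p = 0.17 and 0.056, limma). *Cplane1* had 28 normalized counts there against 52 and 49 in the other *Ctrl* lines, and *Gon4l* had 41 against 74 and 67.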

How the data were processed

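RNA of 3 *Ctrl* and 3 *Tet iTKO* mESC lines was copied by Smart-Seq2, which keeps no strand and tags no molecules, and sequenced as paired reads. The authors used STAR to align the reads, kept those with 1 alignment, ran HTSeq 0.7.1 with its strand option on for a count per gene and divided each library by its DESeq2 1.26.0 size factor. The deposited values are of the unit score: size-factor normalized counts that were rounded, and no longer read counts. The submitters' processing notes name the build mm9, whereas gene positions, exon lengths and GC content here are those of GENCODE M21 on GRCm38, joined by gene identifier. The promoter windows and the motif distances follow RefSeq start sites on GRCm38.p6.

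Groups were assigned from the labels and compared by lmFit and eBayes (with a variance trend) of limma 3.58.1, R 4.3.3. The input was log2(normalized count + 1) of the 10524 genes whose mean reached 10. Ratios of 2 genes were compared with exact permutation tests in Python 3.11.15 with SciPy 1.17.1. Fold changes are on this scale, which understates changes of genes with few reads. The 9 genes and the lists were chosen with earlier results of these data known. Named beyond the 9 are, from each list, up to 2 called genes with the largest rise and up to 2 with the largest fall, with *Tet1*, *Tet2*, *Tet3* and *Uhrf1*, and, for each of the 9 that was called, the 2 genes with the most similar pattern over the libraries. *Pip4p1*, *Osgep*, *Ift122* and *Glt8d2* were named for their position, after their values were seen. The pathway lists had 2 genes with too few reads, *Zbtb4* and *Neil2*.

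Read depth was estimated from the gaps and doublings that rounding leaves in the values, a method that, like the limma test, was run on simulated data first, whose values are not used here. The 3 normalized counts taken as a floor cover counting error only, as reads copied by PCR and not tagged do not count molecules. Squared differences between replicates of a group were, as a mean over genes, 2.59 to 3.46 times what counting noise alone gives, and no replicate was treated as a duplicate. The lines come from different embryos, and p-values rest on the spread between lines, though not on that of each gene alone. With the variance trend, limma draws the spread of each gene toward that of genes at a like level. Without the trend, the adjusted p was 0.029 for *Hmces*, 0.011 for *Apex1* and 0.17 for *Uhrf2* (limma). Alternatives were pseudocounts of 0.5 and 4, no filter, a mean of at least 50, trimmed means of M values, quantile normalization, no variance trend, a replicate block, a loess correction (span 0.3) for GC content and length of 10457 genes, both together, and fits without each library. The sum of *Apex1* and *Pip4p1* was added after seeing the data.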

Additional observations from a re-analysis of the deposited data

How the results depend on the processing

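*Hmces* and *Apex1* kept their direction and their call under all 16 alternatives tried for *Hmces* and all 17 for *Apex1*, though both fell less with the GC and length correction (-0.23 and -0.32). *Uhrf2* kept its direction in all 16, but lost its call in 5 of them. It was lost without the filter on low values and without the variance trend (0.50 in both). It was also lost without *Ctrl* replicate 3 and without *Tet iTKO* replicate 1 or 3. The log2 fold change of *Uhrf2* ranged from 0.25 to 0.63 without each library in turn. *Mbd2* ranged from -0.50 to 0.27 without each library, being positive without *Ctrl* replicate 1 (0.09) and without *Tet iTKO* replicate 2 (0.27), and quantile normalization gave -0.89. With a mean of at least 50, *Mbd2*, *Smug1*, *Neil3* and *Tet3* gave no value, and with means under 10 neither did *Mbd2* without *Tet iTKO* replicate 3, *Neil3* without *Tet iTKO* replicate 1 and *Tet3* without *Ctrl* replicate 1. All genes called numbered 3665, with 2292 when no variance trend was fitted and 2962 to 3367 without each library. Pathway genes called numbered 17, with 10 without the filter, 5 without the variance trend, 11 with the GC and length correction, alone or with the replicate block, and 9 to 16 without each library. With the GC and length correction, alone or with the block, *Mbd6* was -0.031, *Zfp57* 0.0090, *Dnmt3a* -0.17, *Tet1* -0.017 and *Tet2* -0.056, and *Tet2* was -0.019 without *Ctrl* replicate 2. Differences of log2 ratios changed sign for *Tdg* to *Smug1* with quantile normalization (0.071), for *Tdg* to *Tet1* with the GC and length correction (0.26), and without single libraries, where *Mbd2* to *Mbd1* ranged from -1.0 to 0.069, *Tdg* to *Smug1* from -0.29 to 0.030 and *Tdg* to *Tet1* from -0.10 to 0.12. The cause of these changes was not tested.

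Replicate numbers did not pair the lines, since the deviations of lines with the same number had correlations between -0.0054 and 0.0007. With the number as a replicate block 3742 genes were called, and the block changed no call of the 9 genes. Genes with few reads set the limit of this comparison: *Mbd2* had 4 to 21 normalized counts, *Zbtb33* 2 or less, and their differences were not detectable at this depth.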
